A study of Mus musculus with 12 samples.

Results

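The 7 genes described here, linked to mucous neck and deep gland cells of the stomach, were followed through wild-type mouse gastric organoids, 3-dimensional cultures grown from isolated glands. The genes are Muc6, A4gnt, Bpifb1, Glipr1, Fcgbp, Wfdc2 and Dmbt1. They were chosen by gene symbol, and all 7 were found among the 55421 gene rows of the deposited table of expected counts. Messenger RNA had been measured in 12 libraries that form 4 groups of 3. The groups were corpus inhibited, corpus vehicle, antrum inhibited and antrum vehicle, where corpus is the body of the stomach and antrum its outlet end. Each group held lines 8025, 8026 and 8028, all of WT genotype, with at least 3 passages before use. Inhibited organoids received XAV939, which blocks tankyrase and so lowers Wnt pathway activity, at 1 mM as labelled. Their medium lacked Wnt and R-spondin supplements and held 100 ng/mL of Noggin, an antagonist of BMP ligands. The treatment began on day 4 after passage and RNA was taken 24 h later. Vehicle organoids received DMSO in the normal medium with 50% L-WRN conditioned medium, so the compound and the change of medium cannot be told apart. The growth medium held 10% serum for antrum and 20% for corpus, and region and serum cannot be told apart either. The lines within a region are described as independent. Nothing says that a line number shared by antrum and corpus marks the same mouse.

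Gastric glands carry a sheet of surface mucus made by pit cells and a second mucus made deeper down, by mucous neck cells in the corpus and by basal gland cells in the antrum. The deep mucus is built on Muc6, a secreted gel-forming mucin, and A4gnt encodes the Golgi enzyme that caps its sugar chains with alpha-linked N-acetylglucosamine. Of the other genes, Bpifb1 belongs to the lipid-binding BPI fold family and Glipr1 to the CAP superfamily. Fcgbp encodes a large mucus protein with von Willebrand D domains, and Wfdc2 a protein with WAP protease-inhibitor-like domains. Dmbt1 encodes a scavenger receptor cysteine-rich protein of mucosal surfaces. Wnt signalling is known to maintain the stem and progenitor cells of the lower gland.

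The 7 genes did not move as a block. After Wnt inhibition Muc6, A4gnt and Bpifb1 fell in both regions, Dmbt1 rose in both, Glipr1 passed the test in corpus and Fcgbp in antrum, and Wfdc2 passed in neither. Muc6 and A4gnt had the largest falls of the set, above 10-fold in both regions. The 250 bases before and the 50 after their RefSeq start sites are shown for that reason, with the window of Bpifb1, the third gene that fell in both regions, that held a match. RefSeq on build GRCm38.p6 gave windows for 5 of the 7 genes. Capitals mark matches, on either strand, to CTTTGNT, the motif of the TCF/LEF factors that act with beta-catenin, and to GATAA, the motif of GATA factors.
Muc6, chr7:141655344-141655643, minus strand: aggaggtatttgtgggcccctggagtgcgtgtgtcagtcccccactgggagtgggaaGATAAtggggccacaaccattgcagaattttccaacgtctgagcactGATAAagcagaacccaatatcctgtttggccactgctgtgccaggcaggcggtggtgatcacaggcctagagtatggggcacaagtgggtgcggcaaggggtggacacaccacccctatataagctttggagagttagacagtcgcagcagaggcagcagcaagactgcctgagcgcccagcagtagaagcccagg
A4gnt, chr9:99612252-99612551, plus strand: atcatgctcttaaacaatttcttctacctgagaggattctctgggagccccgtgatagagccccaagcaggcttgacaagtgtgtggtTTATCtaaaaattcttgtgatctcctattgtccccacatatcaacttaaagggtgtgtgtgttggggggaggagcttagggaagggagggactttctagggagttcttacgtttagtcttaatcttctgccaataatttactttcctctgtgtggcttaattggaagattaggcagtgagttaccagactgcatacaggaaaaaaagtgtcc
Bpifb1, second start site, chr2:154200130-154200429, plus strand: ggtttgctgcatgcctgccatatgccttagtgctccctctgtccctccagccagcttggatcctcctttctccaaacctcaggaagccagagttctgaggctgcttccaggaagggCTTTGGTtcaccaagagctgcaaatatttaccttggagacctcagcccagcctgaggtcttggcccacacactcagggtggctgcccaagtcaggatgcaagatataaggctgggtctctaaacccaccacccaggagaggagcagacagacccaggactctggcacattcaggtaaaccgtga
The Muc6 window held GATAA at positions -193 and -146 relative to the start site, and the A4gnt window held it on the other strand at -162. Neither held CTTTGNT, which lay at -134 in the Bpifb1 window shown. The other Bpifb1 window, 1 window of Fcgbp and 2 of Wfdc2 held neither motif. Of all 32851 windows of this length, 18.6% held CTTTGNT and 25.4% held GATAA. These matches are letters in a window, not sites shown to be bound.

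Library totals ranged from 18858022 to 31656696 counts, and levels are given as CPM, a gene's counts relative to the TMM-scaled library total. A count of 3, the limit that a count of 0 allows, corresponds to 0.0948 to 0.159 CPM, which covers counting error only. The treatment check moved as labelled. Lgr5, a stem cell receptor for R-spondin, fell with a log2 change of -5.56 in corpus and -4.90 in antrum. Axin2, a Wnt feedback gene, fell with -2.88 and -2.61. The fall was uneven over corpus lines. Inhibited lines 8025, 8026 and 8028 held 3.71, 5.39 and 18.7 CPM of Axin2 in corpus, and 11.5, 14.3 and 11.3 CPM in antrum. Vehicle corpus held 64.2 to 71.4 CPM of it. Lgr5 stood at 0.206, 1.03 and 1.77 CPM in the same inhibited corpus lines. On the second principal component the corpus libraries of line 8028 stood at -25.3 inhibited and 1.78 vehicle, against 28.2 to 40.9 for the other corpus libraries and -34.2 to -7.90 for the antral libraries. The inhibited one thus lay among the antral libraries and the vehicle one between the regions. Ribosomal-RNA-like genes took 17.2% and 6.87% of the counts in antral vehicle lines 8025 and 8028, and 0.839% to 3.45% elsewhere. Markers of fibroblasts, leukocytes and endothelium summed to at most 2.15 CPM in any library.

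Muc6 fell in both regions. Its level was 7.83, 15.2 and 14.0 CPM in inhibited corpus lines 8025, 8026 and 8028, against 238, 233 and 138 CPM in the same lines with vehicle. In antrum it was 42.0, 19.1 and 36.6 CPM in inhibited lines and 354, 238 and 423 CPM in vehicle lines. Every inhibited library lay below every vehicle library of either region. The fitted log2 change was -4.04 ± 0.376 (SE) in corpus, a 16.5-fold fall (edgeR adjusted p 2.14e-05), and -3.38 ± 0.358 in antrum, a 10.4-fold fall (edgeR adjusted p 4.51e-05). Both calls held under every alternative run for that comparison, 21 in corpus and 22 in antrum. In bulk RNA, fewer cells of a type and less RNA per cell cannot be told apart. The summed level of 8 pit cell markers was 2664 to 4694 CPM in inhibited corpus and 509 to 686 CPM in vehicle corpus. In antrum it was 4225 to 5494 CPM inhibited and 604 to 664 CPM with vehicle. All 8 rose in both regions, where 15.5% of all tested genes rose in corpus and 16.3% in antrum. The summed level of 5 chief cell markers was 25.3 to 30.7 CPM in inhibited corpus, 140 to 373 CPM in vehicle corpus, 20.2 to 43.3 CPM in inhibited antrum and 95.2 to 138 CPM in vehicle antrum. The part of either cell type in the Muc6 values was not tested.

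A4gnt followed Muc6. It stood at 0.495, 2.10 and 2.48 CPM in inhibited corpus lines 8025, 8026 and 8028, against 33.8, 34.4 and 28.7 CPM with vehicle. Inhibited antrum gave 2.11, 2.13 and 2.15 CPM and vehicle antrum 30.3, 19.4 and 23.3 CPM. The groups did not overlap in either region, and corpus line 8025 had the lowest value, from 12 counts. The log2 change was -4.24 ± 0.362 (SE) in corpus, an 18.9-fold fall (edgeR adjusted p 1.26e-05), and -3.51 ± 0.349 in antrum, an 11.4-fold fall (edgeR adjusted p 3.07e-05), with both calls kept in every alternative run for them. Summed over 3 libraries, 127 counts stood against 3083 in corpus and 172 against 1661 in antrum.

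**Figure D1:**
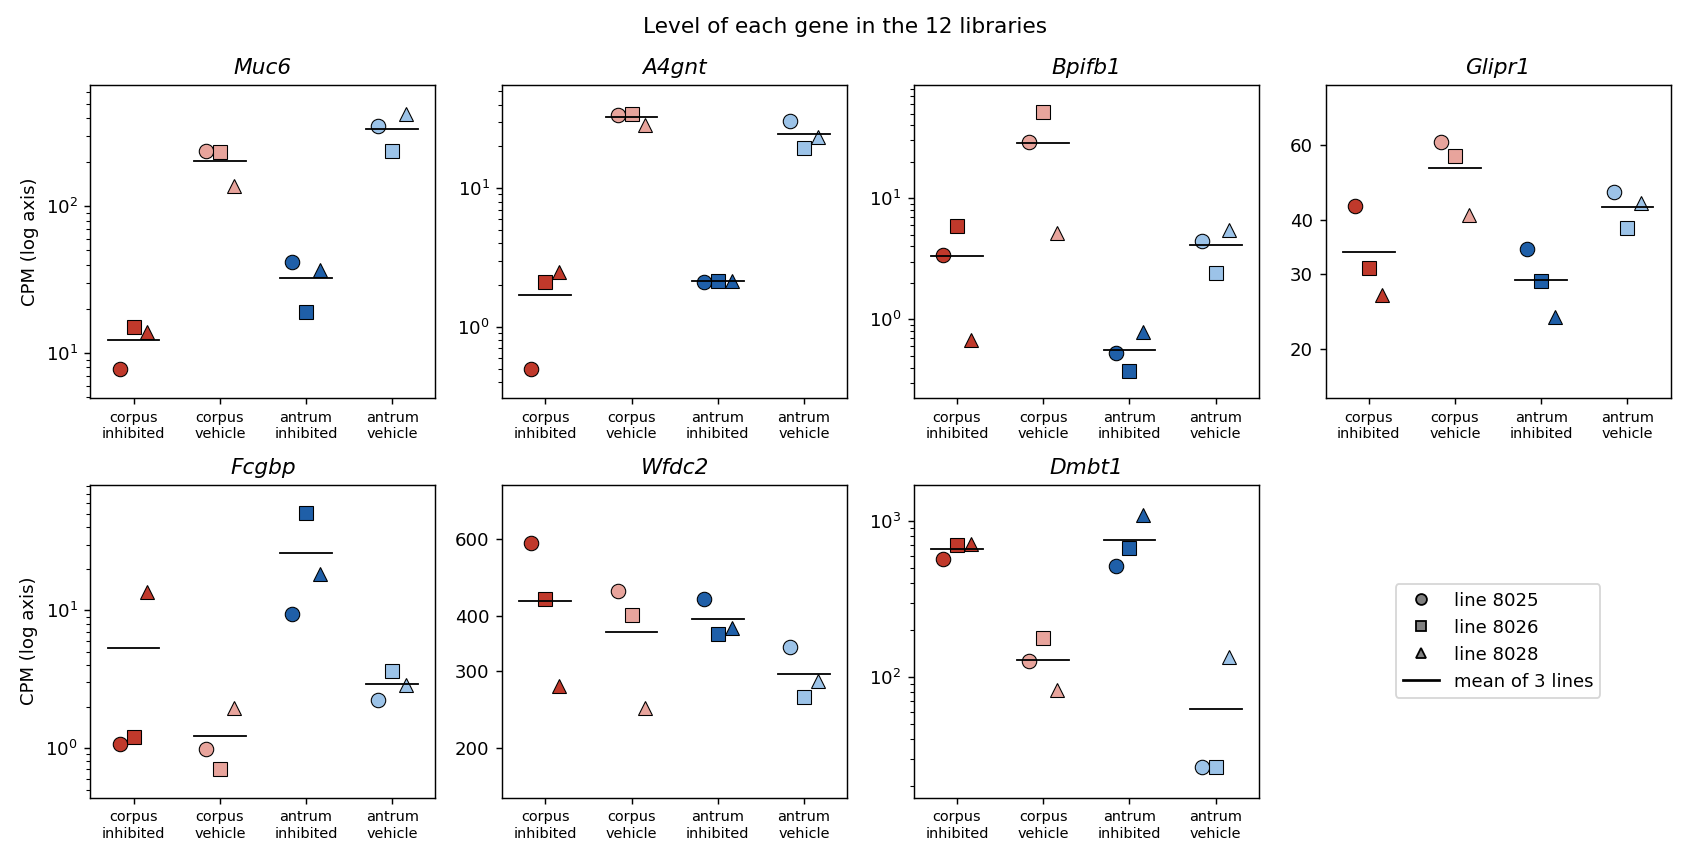
Level of each of the 7 genes in CPM on a log axis that differs between panels. Each symbol is 1 library, its shape the organoid line and its colour the group, and the bar is the mean of 3 lines. Muc6 and A4gnt separate fully by treatment in both regions, Bpifb1 spreads over lines in corpus, and Fcgbp in inhibited corpus is high in line 8028 alone, at 13.7 CPM.

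Because A4gnt acts on the chains that Muc6 carries, its CPM was also expressed as a percentage of the Muc6 CPM in the same library. The value was 6.32%, 13.8% and 17.7% in inhibited corpus lines 8025, 8026 and 8028 and 14.2%, 14.8% and 20.8% in vehicle corpus. In antrum it was 5.03%, 11.2% and 5.87% in inhibited lines and 8.54%, 8.15% and 5.51% in vehicle lines. Inhibited and vehicle groups overlapped in each region (two-sided exact permutation p 0.40 in corpus and 0.90 in antrum). Line by line, the percentage was lower after inhibition in 3 of 3 corpus lines and in 1 of 3 antral lines (exact paired permutation p 0.25, the smallest that 3 pairs can give, and 1.00). Between regions, vehicle antrum averaged 7.40% ± 1.65 and vehicle corpus 16.6% ± 3.64 (SD, n = 3 each) without overlap, and the exact permutation p of 0.10 is the smallest that 3 against 3 libraries can give. After inhibition the averages were 7.35% ± 3.32 in antrum and 12.6% ± 5.81 in corpus, with overlap (exact permutation p 0.20). These 6 p-values are not adjusted.

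The mucin genes next to Muc6 did not share its direction. On chromosome 7 of GRCm38, GENCODE places Muc2 35.0 kb, Muc5ac 134 kb and Muc5b 184 kb from the upper end of Muc6. Muc5ac, the mucin of surface pit cells, averaged 42.4 ± 26.2 CPM in inhibited corpus and 0.814 ± 0.708 CPM in vehicle corpus (SD, n = 3), with a log2 change of 5.66 ± 0.653 (SE; edgeR adjusted p 8.84e-05). In antrum its log2 change was 6.67 ± 0.708 (edgeR adjusted p 4.54e-05). Muc5b rose too, at means of 2.10 CPM in inhibited corpus, 0.0296 CPM in vehicle corpus, 0.755 CPM in inhibited antrum and 0.0139 CPM in vehicle antrum; most vehicle libraries held no Muc5b count, so its fitted fold has no fixed size. Muc2, best known from intestinal goblet cells, had log2 values of -0.08 ± 0.555 and 0.03 ± 0.574 and did not pass. Ap2a2, an adaptor protein subunit 0.445 kb beyond the other end of Muc6, had log2 changes of 0.22 ± 0.0497 in corpus and 0.15 ± 0.0498 in antrum (edgeR adjusted p 0.0053 and 0.0434). Of 17 other protein-coding genes within 250 kb, 16 were tested, and those that are not mucins lay between -0.94 and 0.44 on the log2 scale.

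**Figure D2:**
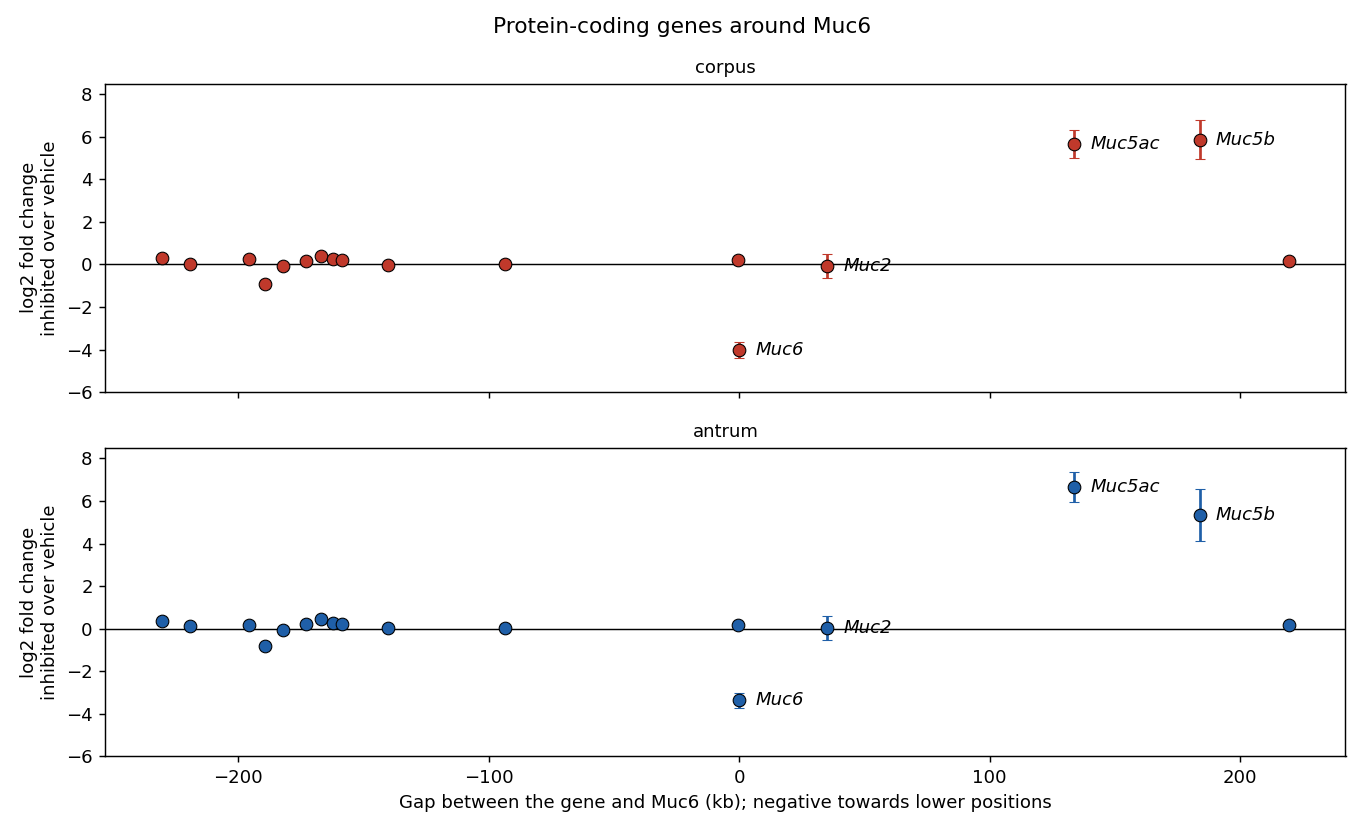
Log2 fold change of inhibited over vehicle organoids, with standard errors, for the tested protein-coding genes within 250 kb of Muc6, against the gap to Muc6 in kb. Muc6 has the largest fall of these genes, at -4.04 in corpus and -3.38 in antrum, while Muc5ac and Muc5b rise and Muc2 stays near 0.

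Bpifb1 fell by a like factor in lines that differed widely in level. It stood at 3.42, 5.86 and 0.677 CPM in inhibited corpus lines 8025, 8026 and 8028, against 29.4, 51.8 and 5.16 CPM with vehicle. Antral values were 0.528, 0.373 and 0.782 CPM in inhibited lines and 4.42, 2.41 and 5.51 CPM in vehicle lines. The corpus groups overlapped, since vehicle line 8028 lay below inhibited line 8026, while the antral groups did not overlap. Vehicle corpus lines spanned 10.0-fold, yet within a line the vehicle level was 7.62 to 8.83 times the inhibited level in corpus and 6.45 to 8.38 times in antrum. The log2 change was -3.13 ± 0.785 (SE) in corpus (edgeR adjusted p 0.0109) and -2.86 ± 0.970 in antrum (edgeR adjusted p 0.0456).

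The corpus call of Bpifb1 ended in 4 of 21 alternatives and the antral call in 14 of 22. The corpus call held without any 1 corpus library (edgeR adjusted p up to 0.04999, without vehicle line 8026) and ended without both libraries of line 8025 (edgeR adjusted p 0.0750). Its log2 value moved to -2.39 without vehicle line 8026 and -3.80 without inhibited line 8026. The antral call, which rests on 45 counts in inhibited and 280 in vehicle libraries, ended without any 1 of the 6 antral libraries: the adjusted p was 0.123, 0.127 and 0.0872 without inhibited lines 8025, 8026 and 8028 and 0.0909, 0.0560 and 0.114 without vehicle lines 8025, 8026 and 8028. With the line as a block, which compares each line with itself, it stayed past the threshold.

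Glipr1 moved little. It stood at 43.2, 31.0 and 26.7 CPM in inhibited corpus, against 60.9, 56.6 and 41.3 CPM in vehicle corpus, and at 34.3, 28.8 and 23.9 CPM in inhibited antrum, against 46.6, 38.4 and 44.0 CPM in vehicle antrum (lines 8025, 8026 and 8028). Corpus groups overlapped and antral groups did not, and the inhibited library was the lower one in all 6 lines. The corpus log2 change was -0.65 ± 0.196 (SE; edgeR adjusted p 0.0260), a call that ended without inhibited line 8026 (0.104) or 8028 (0.0758), without vehicle line 8025 (0.110) or 8026 (0.0816), or without both libraries of line 8026 (0.200). In antrum the log2 value was -0.56 ± 0.197 (edgeR adjusted p 0.0510). That value passed with the line as a block (edgeR adjusted p 0.00178) and without inhibited line 8025 (0.0440). Glipr1 overlaps Krr1, a gene on the opposite strand with log2 values of -0.19 and -0.08 that did not pass, over 2985 bases of GRCm38. Whether counting used the strand is not given in the sources used here. Whether reads from the bases shared by such overlapping genes were told apart is therefore not known.

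Dmbt1 went the other way. It stood at 570, 696 and 710 CPM in inhibited corpus lines 8025, 8026 and 8028, against 127, 178 and 83.1 CPM in vehicle corpus. Antral values were 517, 673 and 1089 CPM in inhibited lines and 26.4, 26.7 and 134 CPM in vehicle lines. The groups did not overlap in either region, and antral vehicle line 8028 lay 5.10-fold above the lowest of its group. The log2 change was 2.35 ± 0.576 (SE) in corpus, a 5.09-fold rise (edgeR adjusted p 0.00969), and 3.60 ± 0.610 in antrum, a 12.1-fold rise (edgeR adjusted p 0.00111). Without antral vehicle line 8028 the antral value was 4.84, and it kept its call in every alternative run. The corpus call ended without both libraries of line 8025 (0.0612) or of line 8028 (0.109). Dmbt1 lies wholly within Fgfr2, a fibroblast growth factor receptor gene on the opposite strand, whose log2 change was -2.45 ± 0.344 in corpus and -1.54 ± 0.325 in antrum.

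Fcgbp rose in antrum, where it stood at 9.47, 50.8 and 18.3 CPM in inhibited lines 8025, 8026 and 8028 and at 2.24, 3.66 and 2.88 CPM in vehicle lines. In corpus it was 1.07, 1.20 and 13.7 CPM in inhibited lines and 0.978, 0.702 and 1.96 CPM in vehicle lines. The antral groups were apart, while in corpus line 8028 alone stood out and lines 8025 and 8026 stayed within the vehicle range. The antral log2 change was 3.14 ± 0.914 (SE; edgeR adjusted p 0.0236). That call ended without inhibited line 8026, with a log2 value of 2.23 (adjusted p 0.103), or without vehicle line 8025 (0.0746), 8026 (0.0589) or 8028 (0.0687). In corpus the log2 value was 2.15 ± 0.968 (edgeR adjusted p 0.116) and became -0.06 without inhibited line 8028. A related gene, 9530053A07Rik, could share reads with Fcgbp; it had log2 values of -0.22 in corpus and -0.03 in antrum and did not pass.

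Markers of intestinal goblet cells, a cell type known to make Fcgbp, were measured beside it. Their summed level over 5 genes was 27.7, 25.4 and 63.8 CPM in inhibited corpus lines 8025, 8026 and 8028, and 9.66, 9.47 and 9.12 CPM in vehicle corpus. In antrum it was 230, 306 and 259 CPM in inhibited lines and 11.4, 12.6 and 25.8 CPM in vehicle lines. Inhibited line 8028 was the highest of the corpus libraries in this sum as in Fcgbp, but the sum was also higher after inhibition in corpus lines 8025 and 8026, where Fcgbp stayed in the vehicle range. Of the 4 markers tested, 2 rose in each region, where 15.5% of all tested genes rose in corpus and 16.3% in antrum. The 2 were Tff3, a trefoil peptide, and Clca1, a goblet cell secretory protein (log2 change 4.02 ± 0.486 in corpus and 4.83 ± 0.451 in antrum). Most of the sum after inhibition was Clca1, with a mean of 243 CPM in inhibited antrum and 29.1 CPM in inhibited corpus. Muc2 and Spink4 did not pass in either region, with Spink4 at log2 values of 0.01 in corpus and 0.74 in antrum, and Zg16 was at 0.0532 CPM or less in every group mean. The part of such cells in the Fcgbp values was not tested.

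Wfdc2 stayed close to its vehicle level. It stood at 587, 436 and 276 CPM in inhibited corpus, against 455, 402 and 246 CPM in vehicle corpus, and at 438, 364 and 375 CPM in inhibited antrum, against 340, 262 and 284 CPM in vehicle antrum (lines 8025, 8026 and 8028). The inhibited library was the higher one in all 6 lines, by 1.09- to 1.29-fold in corpus and 1.29- to 1.39-fold in antrum, and the antral groups did not overlap. The log2 value was 0.24 ± 0.261 (SE) in corpus (edgeR adjusted p 0.533) and 0.41 ± 0.261 in antrum (edgeR adjusted p 0.262), neither past the threshold. With the line as a block both passed, at 0.22 in corpus (edgeR adjusted p 0.0169) and 0.41 in antrum (edgeR adjusted p 0.000489). In antrum it also passed with only the 6 antral libraries in the fit (edgeR adjusted p 0.0155) and without both corpus libraries of line 8028 (0.0241), and in corpus the value became -0.03 without inhibited line 8025.

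**Figure D3:**
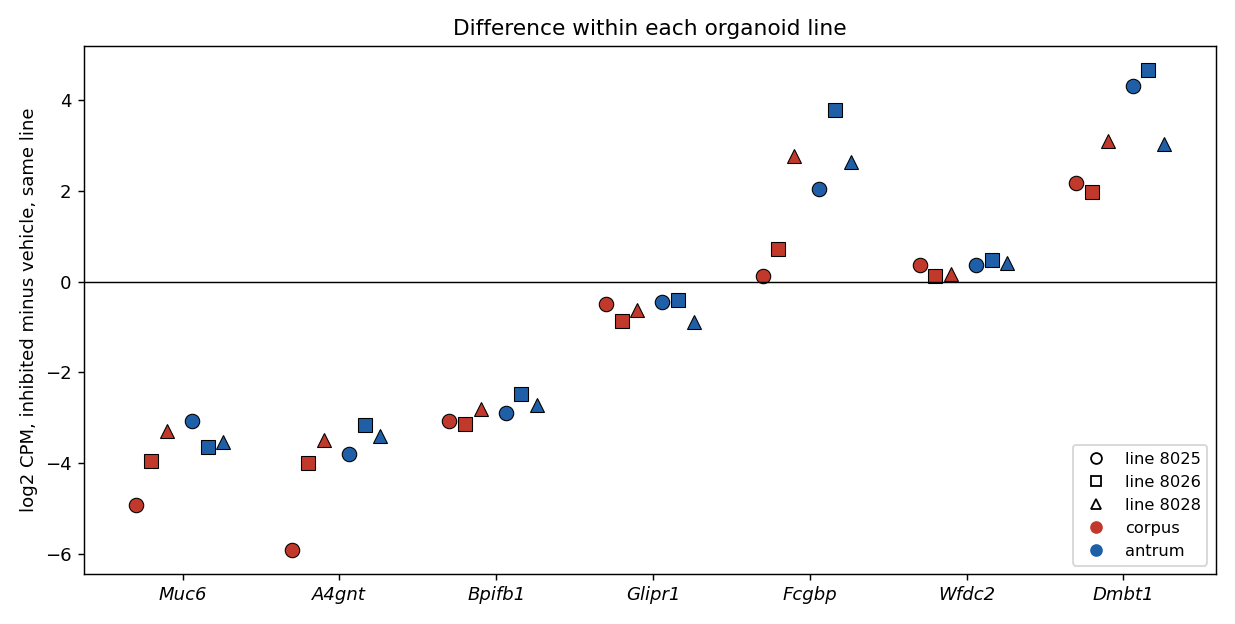
Difference in log2 CPM between the inhibited and the vehicle library of the same organoid line, for each gene, with corpus in red, antrum in blue and symbols for lines. Muc6, A4gnt, Bpifb1 and Glipr1 are below 0 in all 6 lines and Fcgbp, Wfdc2 and Dmbt1 above 0, with Bpifb1 between -3.13 and -2.47.

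In all, 5 of the 7 genes were called in corpus, 1 higher and 4 lower, where 30.9% of all 16152 tested genes were called (15.5% higher and 15.4% lower). In antrum 5 were called, 2 higher and 3 lower, where 29.7% of all genes were called (16.3% higher and 13.4% lower). The groups did not overlap for 3 of 7 genes in corpus, where this held for 40.8% of all genes, and for 7 of 7 in antrum, where it held for 48.7%. The median log2 value of the set was -0.65 in corpus and -0.56 in antrum, beside -0.04 over all tested genes in each. The genes were chosen with earlier results of these data known, so these figures describe the set and test nothing about it. All 7 genes passed the low-count filter. With the line as a block, 6 genes passed in corpus, where 43.5% of all genes did, and 7 in antrum, where 40.8% did.

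Compared per length, the order of levels changed with treatment. Wfdc2 had the highest level per kilobase of exon in every group, at 380 ± 136 CPM per kb in inhibited corpus, 323 ± 95.4 in vehicle corpus, 344 ± 34.6 in inhibited antrum and 259 ± 35.5 in vehicle antrum (SD, n = 3). In inhibited organoids of both regions Dmbt1 and then Glipr1 came next, with no overlap between neighbours, and Muc6 followed. In vehicle corpus the order after Wfdc2 was Glipr1, Muc6, Dmbt1, A4gnt, Bpifb1 and Fcgbp, and the ranges of Muc6 and Dmbt1, of Dmbt1 and A4gnt, and of A4gnt and Bpifb1 overlapped. In vehicle antrum Muc6 came second at 36.2 ± 10.0 CPM per kb, its range overlapping that of Glipr1 at 27.8 ± 2.73. Dmbt1 (8.86 ± 8.83) and A4gnt (8.83 ± 1.99) followed with overlapping ranges, where Dmbt1 reached 19.1 CPM per kb in line 8028 alone, and then Bpifb1 and Fcgbp. With the length of the longest transcript instead, the order changed only for A4gnt and Fcgbp in inhibited corpus.

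**Figure D4:**
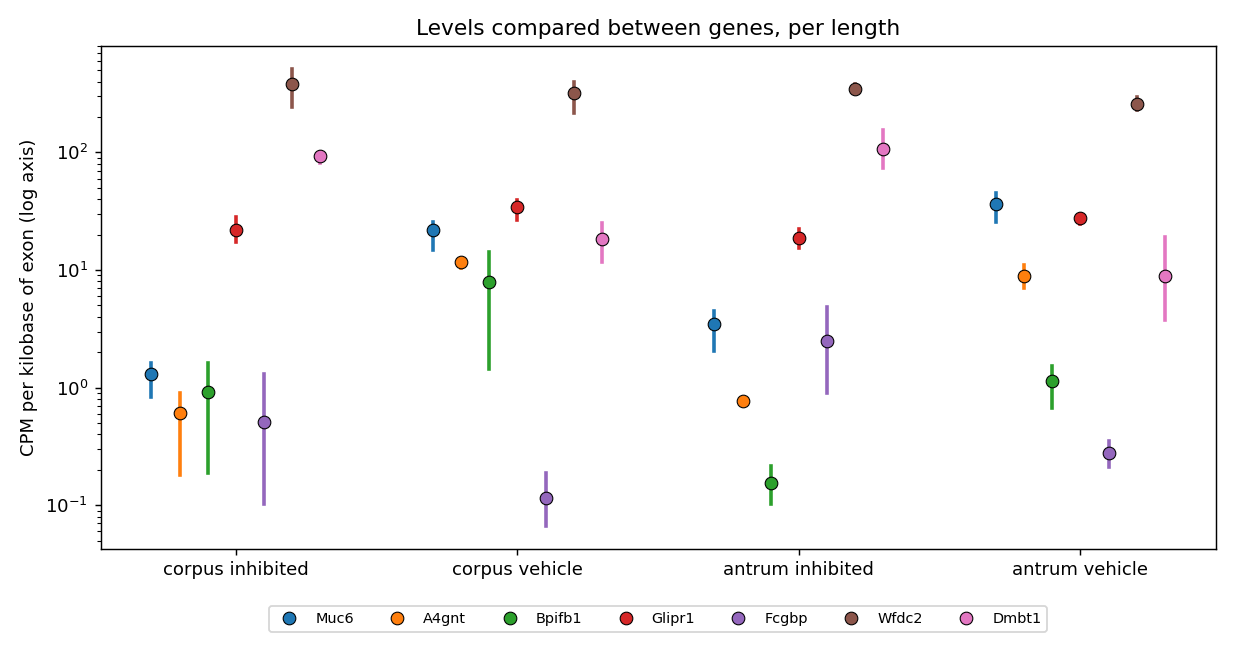
Level per kilobase of annotated exon on a log axis for each gene in the 4 groups; points are means of 3 libraries and bars run from the lowest to the highest library. Wfdc2 is the highest in every group, and Muc6 has a mean of 1.32 CPM per kb in inhibited corpus and 21.7 in vehicle corpus.

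No gene's response was shown to differ between antrum and corpus. The difference of log2 changes, antrum minus corpus, was 0.67 ± 0.477 (SE) for Muc6, 0.74 ± 0.489 for A4gnt and 1.25 ± 0.783 for Dmbt1. It was 0.27 ± 1.31 for Bpifb1, 0.09 ± 0.277 for Glipr1, 0.99 ± 1.31 for Fcgbp and 0.18 ± 0.369 for Wfdc2. Single libraries moved these values: Fcgbp was 3.21 without inhibited corpus line 8028 and 0.079 without inhibited antral line 8026, Dmbt1 was 2.49 without antral vehicle line 8028, and Bpifb1 lay between -0.47 without corpus vehicle line 8026 and 0.97 without corpus inhibited line 8026. All 7 had an edgeR adjusted p of 1.00, and 0 of 7 had an unadjusted p under 0.05 with edgeR, limma-voom or DESeq2, which gave an adjusted p for 3 of them. Across all genes 0.00619% were called.

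Between regions, edgeR called 0 of 7 genes with vehicle, where 0.198% of all genes were called (0.0681% higher and 0.13% lower in antrum), and 0 of 7 after inhibition, where 0.0619% were (0.0495% higher and 0.0124% lower). Unadjusted edgeR p-values were under 0.05 for 2 genes with vehicle and 3 after inhibition. The share of all genes under that limit is not given here. DESeq2 called Bpifb1 with vehicle (DESeq2 adjusted p 0.0421), where it called 3.08% of all genes. After inhibition DESeq2 called Muc6 (DESeq2 adjusted p 0.00497), where it called 0.922% of all genes. With limma-voom 0 of 7 were called in each, beside 0.13% and 0.0805% of all genes. Muc6 was higher in antrum without overlap under both conditions, though with vehicle the nearest libraries, antral line 8026 and corpus line 8025, were only 0.115 CPM apart. It had log2 values of 0.74 ± 0.325 (SE) with vehicle (edgeR adjusted p 0.308) and 1.40 ± 0.354 after inhibition (edgeR adjusted p 0.299). Fcgbp was the other gene without overlap with vehicle. Groups did not overlap for 22.5% of all genes with vehicle and 11.8% after inhibition.

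Without both corpus libraries of line 8028, 6.6% of all genes were called between regions with vehicle and 14.6% after inhibition, against 0.198% and 0.0619% with them, and the calls gained by these genes there are read against those shares. Bpifb1 had log2 values, antrum minus corpus, of -2.82 ± 0.773 with vehicle (edgeR adjusted p 0.145) and -2.55 ± 0.979 after inhibition (edgeR adjusted p 0.472). Without that line these were -3.32 (edgeR adjusted p 0.00307) and -3.05 (0.0101), while without corpus vehicle line 8026 the first was -2.08 and without corpus inhibited line 8026 the second was -1.85, neither of them called. Fcgbp after inhibition stood at 2.28 ± 0.864 (edgeR adjusted p 0.469). It was 4.52 without inhibited corpus line 8028 (0.0208), where 11.4% of all genes were called, and 1.37 without inhibited antral line 8026 (0.994). Dmbt1 with vehicle was -1.05 ± 0.561 (edgeR adjusted p 0.388) and -2.29 without antral vehicle line 8028 (0.0471).

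Other genes of mucous neck and deep gland cells were also mixed. In corpus 2 of the 10 tested were higher and 6 lower, and in antrum 2 were higher and 5 lower. Of all tested genes 15.5% were higher and 15.4% lower in corpus, and 16.3% and 13.4% in antrum. Aqp5, a water channel of the gland base, fell with log2 changes of -2.92 ± 0.206 (SE) in corpus and -2.37 ± 0.201 in antrum, and Gkn3, a gastrokine of neck cells, with -2.31 ± 0.202 in corpus and -1.34 ± 0.195 in antrum. Cftr, a chloride channel, fell with -1.89 ± 0.310 in corpus and -1.58 ± 0.313 in antrum. Tff2, the trefoil peptide that is packed with Muc6 in gland mucus, rose with 2.26 ± 0.359 in corpus and 2.89 ± 0.369 in antrum, opposite to Muc6 (edgeR adjusted p 0.000721 and 0.000168).

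**Figure D5:**
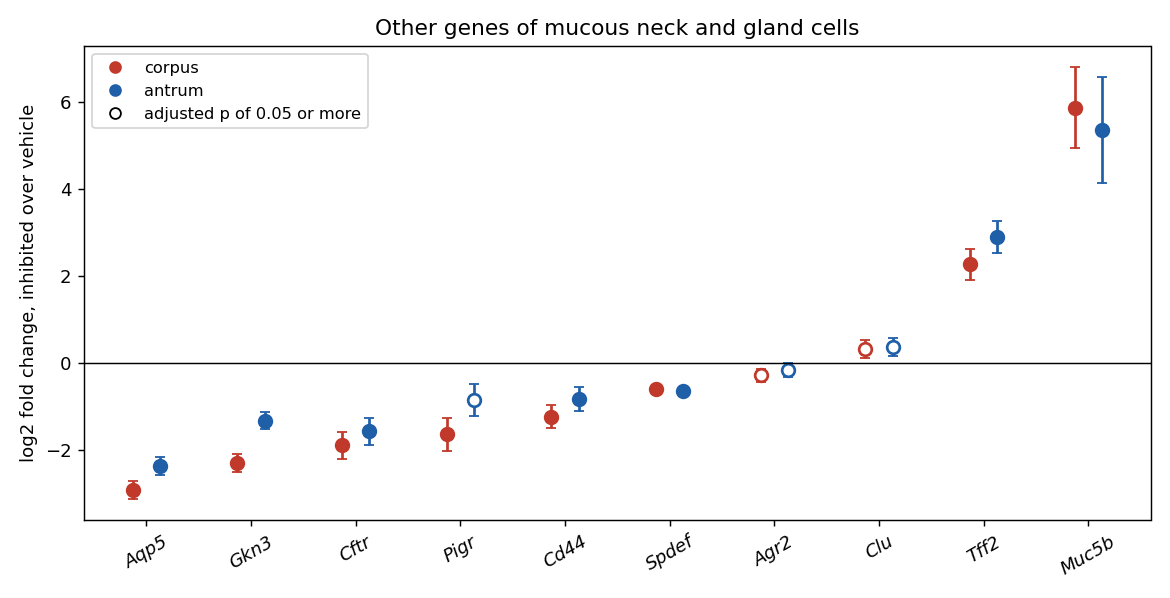
Log2 fold change of inhibited over vehicle organoids, with standard errors, for 10 other genes of mucous neck and gland cells, corpus in red and antrum in blue; open points did not pass the test. Aqp5 has the lowest value, -2.92 in corpus, Tff2 and Muc5b lie above 0, and the fitted fold of Muc5b has no fixed size since most vehicle libraries held none.

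Among genes that build mucin sugar chains, more rose than fell. In corpus 9 of the 19 tested were higher and 2 lower, and in antrum 8 were higher and 2 lower. The shares of all tested genes were 15.5% higher and 15.4% lower in corpus, and 16.3% and 13.4% in antrum. Gcnt3, a branching enzyme of mucin chains, rose with log2 changes of 1.39 ± 0.118 (SE) in corpus and 1.43 ± 0.118 in antrum, and Galnt4, which starts the chains, with 0.97 ± 0.0726 and 1.04 ± 0.0728. B4galt5, a galactosyltransferase, fell with -1.07 ± 0.253 in corpus and -0.75 ± 0.255 in antrum. Genes of mucin folding and secretion were mixed: in corpus 4 of the 13 tested were higher and 3 lower, and in antrum 3 were higher and 4 lower. Ern2, an endoplasmic reticulum stress sensor of mucous cells, changed by 0.85 ± 0.0864 in corpus and 1.09 ± 0.0869 in antrum, and Rab27a, a secretory granule GTPase, by 1.00 ± 0.127 and 1.04 ± 0.128. Creb3l4, a transcription factor of secretory cells, fell with -1.48 ± 0.176 in corpus and -1.07 ± 0.173 in antrum.

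Relatives of the 7 genes were mostly at very low levels, and few moved with them. Of 16 BPI fold genes 4 were tested, and 2 fell in each region, Bpifb1 and Lbp, the lipopolysaccharide-binding protein. Of 12 CAP superfamily genes 2 were tested, and Glipr1 alone fell, in corpus. Of 7 genes listed for von Willebrand D domains like those of Fcgbp, 4 were tested, Fcgbp included. In corpus 1 was higher and 0 lower, and in antrum 2 were higher and 1 lower. Zan rose in both regions, with log2 changes of 0.59 ± 0.121 (SE) in corpus and 0.81 ± 0.123 in antrum (edgeR adjusted p 0.00333 and 0.000521). Among 12 WAP-domain genes 5 were tested, Wfdc2 included, with 1 higher and 1 lower in each region. The 7 tested scavenger receptor cysteine-rich genes, Dmbt1 among them, had 1 higher and 2 lower in corpus, and 2 higher and 1 lower in antrum. For mucosal defence, 4 of the 13 tested were higher and 2 lower in corpus, and 4 higher and 0 lower in antrum. All these list counts stand beside 30.9% of all tested genes called in corpus and 29.7% in antrum. Lypd8, an anti-bacterial surface protein of the gut, rose with 2.83 ± 0.516 in corpus and 3.78 ± 0.531 in antrum, and Reg3g, a secreted lectin, fell with -2.29 ± 0.446 in corpus and had a log2 value of -1.22 ± 0.443 in antrum that did not pass.

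Likeness of pattern was measured as the root mean square difference in log2 CPM over the 12 libraries, after each gene was centred on its own mean, among 11024 genes with a mean of at least 5 CPM. Among the 7 genes, Muc6 and A4gnt were 0.661 apart, Glipr1 and Wfdc2, which both moved little, 0.492 apart, and Bpifb1 and Fcgbp 3.77 apart. The genes nearest to Muc6 were Igfbp4 (0.424), Gm830 (0.523), Ppp2r2b (0.549), Gprc5b (0.581) and Ccdc3 (0.604), and those nearest to A4gnt were Robo1 (0.488) and Anpep (0.511). Cyp2c65 (0.424) and Gstm3 (0.523) were nearest to Dmbt1, and Cdh17, an intestinal cadherin (0.792), and Otop3 (1.02) to Fcgbp. Plod2 (1.09) and Akap5 (1.14) were the nearest to Bpifb1, farther than the nearest gene of any other member. Arvcf (0.114) was nearest to Glipr1 and Arhgef40 (0.133) to Wfdc2. All pairs share the 12 libraries and the treatment split.

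On GRCm38 all 7 are protein-coding: Muc6 (ENSMUSG00000048191) at chr7:141633456-141655319 on the minus strand, A4gnt (ENSMUSG00000037953) at chr9:99612502-99622367 on the plus strand, and Bpifb1 (ENSMUSG00000027485) at chr2:154190818-154220369 on the plus strand. Glipr1 (ENSMUSG00000056888) lies at chr10:111985448-112002631 on the minus strand and Fcgbp (ENSMUSG00000047730) at chr7:28071236-28120862 on the plus strand. Wfdc2 (ENSMUSG00000017723) lies at chr2:164562413-164568510 and Dmbt1 (ENSMUSG00000047517) at chr7:131032053-131121630, both on the plus strand. Counts are sums over whole genes.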

How the data were processed

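Poly(A) RNA-seq of 12 organoid libraries was used. The authors deposited expected counts per gene, already whole numbers. Per the submitters' processing notes the tools were RSEM 1.3.3, STAR 2.7.8a, cutadapt 2.3 and FastQC 0.11.8, with GRCm38. The sources used here do not give the annotation release or the strand setting. From 55426 rows, 5 transgene rows holding 2 counts were removed.

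Groups follow the labels, in which vehicle samples carry the treatment value none. The main test was edgeR 4.0.16 in R 4.3.3, with TMM scaling and filterByExpr. A robust quasi-likelihood model used all 12 libraries (8 residual degrees of freedom), with two-sided tests and Benjamini-Hochberg adjustment over 16152 genes at 0.05. P-values of the main test measure the spread between lines within a group. The main model had no term for line, so it did not compare each line with itself. The test was also run on simulated counts, whose means and spread were taken from these data. Positions come from GENCODE mouse release M21 on GRCm38, and a gene's length is the union of its exons. Log2 CPM for patterns used a prior count of 2.

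The members and lists were chosen with earlier results of these data known. Named list genes are up to 3 with the largest log2 change per region among those past the threshold with a mean of at least 5 CPM. Lbp, Muc2, Muc5b, Ap2a2, Fgfr2, Krr1, 9530053A07Rik, Spink4, Tff3 and Zg16 were named outside that rule, after their values were seen, and the A4gnt share of Muc6 and the Muc6 neighbours were also examined then. Spint1 and Spint2, Kunitz inhibitors placed in the WAP-domain list in error, were removed from its counts after the data were seen.

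Within a region the same lines were treated both ways, so line numbers pair libraries. The 6 pairs' deviations from group means had correlations of 0.400 to 0.729. Between regions these were -0.348 to 0.485, and numbers were not used as pairs there. Libraries of a group differed by more than sampling noise (chi-square over its degrees of freedom, 10.4 to 292). The alternatives changed the scaling (RLE, upper quartile, total counts), the filter (none, or 1 CPM in 3 libraries), the tool (DESeq2 1.42.0, voom of limma 3.58.1), the block on line, and the libraries entered.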

Additional observations from a re-analysis of the deposited data

How the results depend on the processing

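The direction and call of Muc6 and A4gnt after inhibition were the same in both regions under every alternative run for them. In corpus 5 of the 7 genes were called, beside 30.9% of all genes. The number was 2 without a low-count filter, where 14.8% of all genes were called, and 3 with only the libraries compared, where 22.4% were. It was 4 to 5 without any 1 library, beside 22.8% to 41.7%, and 3 without both libraries of line 8025, beside 19.8%. In antrum 5 were called, beside 29.7% of all genes. The number was 3 without a low-count filter (14.4% of all genes) and 3 to 5 without any 1 library (20.9% to 25.5%). Without both libraries of any antral line the number was 3, beside 16.5% to 20.1%. Total counts and limma-voom gave 4, beside 24.7% and 29.9%. Upper quartile scaling, DESeq2 and the 1 CPM filter gave 6, where 31.0% to 33.4% of all genes were called. The number was 7 with only the antral libraries and without both corpus libraries of line 8028, beside 36.8% and 38.6% of all genes. Antral vehicle lines 8025 and 8028 carried most ribosomal-RNA-like counts. Without them 1 antral vehicle library remained, so only effect sizes are given for that fit. The antral log2 values were then -2.10 for Bpifb1, 2.84 for Fcgbp and 4.84 for Dmbt1. With the replicate block the counts were 6 (2 higher and 4 lower) in corpus, 7 (3 higher and 4 lower) in antrum and 0 in the other comparisons, beside 43.5% and 40.8% of all genes in the treatment comparisons, and it changed no other call than those of Glipr1 and Wfdc2 given above. Between regions DESeq2 called 1 gene with vehicle and 1 after inhibition, where it called 3.08% and 0.922% of all genes. Leaving out 1 library gave 0 to 1 in each. The 1 came without antral vehicle line 8028, beside 0.194% of all genes, and without inhibited corpus line 8028, beside 11.4%. Without both corpus libraries of line 8028 the counts were 1 and 2, where 6.6% and 14.6% of all genes were called. With those libraries the shares were 0.198% and 0.0619%. The difference of responses had 0 calls throughout. In corpus Bpifb1, Glipr1 and Dmbt1 lost their calls without the filter (adjusted p 0.0552, 0.0589 and 0.0523), Bpifb1 and Glipr1 with only the libraries compared (0.0567 and 0.0694), and Bpifb1 with limma-voom (0.0591). In antrum Bpifb1 and Fcgbp lost theirs without the filter (0.161 and 0.0967) and with total counts (0.0658 and 0.0546), and Bpifb1 with limma-voom (0.311). The cause was not tested. In antrum Glipr1 passed in 9 of 22 alternatives.

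Signs changed only when libraries were left out, and none of these values was called. Without 1 library, log2 values ran from -0.060 to 2.69 for Fcgbp and -0.027 to 0.51 for Wfdc2 in corpus. For the difference of responses they ran from -0.47 to 0.97 for Bpifb1, -0.063 to 0.31 for Glipr1 and -0.074 to 0.46 for Wfdc2; without both libraries of corpus line 8026 or antral line 8025, Glipr1 was -0.018 and -0.0021. Between regions after inhibition they ran from -0.095 to 0.73 for A4gnt, -0.36 to 0.019 for Glipr1, -0.38 to 0.15 for Wfdc2 and -0.15 to 0.42 for Dmbt1. Without both libraries of corpus line 8025 these were -0.11 for A4gnt, 0.0066 for Glipr1 and 0.14 for Wfdc2, and without antral line 8028 -0.15 for Dmbt1. Total counts moved the median of all genes to -0.19 in corpus and -0.12 in antrum. The share of calls that were higher was 26.4% and 44.4% with total counts, 50.1% and 55.0% with TMM, and 43.6% in antrum with upper quartile scaling. The genes nearest to each member were the same with RLE scaling. Low counts limit Bpifb1, A4gnt and Fcgbp in some groups.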
